A study of Mus musculus with 24 samples.

Results

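H19 and 9 other imprinted growth genes (Igf2, Igf2r, Dlk1, Meg3, Peg3, Plagl1, Mest, Cdkn1c and Grb10) were followed across 24 RNA libraries from mouse bone marrow stromal cultures. The 10 genes were taken by symbol from the 54232 gene identifiers of the count tables, and all 10 symbols were found. They were chosen by the H19 level, which was about 3-fold lower in the mutant libraries of both sorted populations, so the difference in H19 between genotypes is given as a description and was not tested. The mutant mice carried the Sh3bp2 KI/KI knock-in, a model of cherubism, an inherited disease of the jaw bones caused by changes in the adaptor protein SH3BP2. Wild type mice were the controls, and all mice were female C57BL/6 aged 6 to 8 weeks. Marrow cells of both genotypes were cultured for 7 days and sorted by flow cytometry into CD45-Sca1+ cells, called mesenchymal, and CD45+Sca1+ cells, called hematopoietic. Each of the 4 groups held 6 libraries. The labels do not say whether the libraries of a group came from separate mice, so the p-values measure the spread between libraries, which may be technical. The names of the deposited files hold a code that may stand for a mouse, and it entered no fit.

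Imprinted genes are expressed from the copy inherited from 1 parent, and many of them act on growth before and after birth. H19 is a non-coding RNA expressed from the maternal copy beside Igf2, which encodes a growth factor expressed from the paternal copy, and a shared control region keeps the pair in opposite states. Igf2r encodes the receptor that binds IGF2 and carries it to lysosomes, and also sorts lysosomal enzymes. Several of the 10 genes are high in the embryo and decline after birth, and in mouse bone marrow the maternal H19 region is known for keeping blood stem cells quiescent.

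H19 (ENSMUSG00000000031) lies at chr7:142575529-142578143 on the minus strand of GRCm38, and its transcript holds the precursor of miR-675. Mest lies at chr6:30723547-30748465 on the plus strand, and its intron holds miR-335. The mature miRNAs are shown because they are the sequences that H19 and Mest transcripts can give rise to. They are from the RefSeq table for GRCm38.p6, 5′ to 3′, with the seed (bases 2 to 8) in capitals:
mmu-miR-675-5p: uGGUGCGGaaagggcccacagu
mmu-miR-675-3p: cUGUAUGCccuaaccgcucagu
mmu-miR-335-5p: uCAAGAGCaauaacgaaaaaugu
mmu-miR-335-3p: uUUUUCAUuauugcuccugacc
No 2 of these 4 seeds were the same. The libraries did not measure the miRNAs themselves. The annotated hairpins Mir675 and Mir335 had 0 counts in all 24 libraries. All 84 bases of Mir675 lie in H19 exons on the same strand, so its 0 may come from how shared reads were counted.

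Promoter sequences were shown for the 3 members, apart from H19, whose level passed the test between genotypes. RefSeq's table for GRCm38.p6 held promoter entries for 8 of the 10 genes, and none was used for H19 or Cdkn1c. Each sequence below is the 250 bases before an annotated transcript start, 5′ to 3′ on the gene's strand. Capitals mark CACGTG in Igf2r (chr17:12769707-12769956, minus strand) and Plagl1 (chr10:13090582-13090831, plus strand), and GGGCGG in Mest (chr6:30737800-30738049, plus strand):
Igf2r: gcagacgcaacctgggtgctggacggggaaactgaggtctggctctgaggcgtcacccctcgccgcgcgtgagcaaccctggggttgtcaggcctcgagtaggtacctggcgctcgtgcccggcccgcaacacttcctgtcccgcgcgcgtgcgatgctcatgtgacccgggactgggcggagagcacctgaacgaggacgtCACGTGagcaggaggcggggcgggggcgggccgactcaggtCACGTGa
Plagl1: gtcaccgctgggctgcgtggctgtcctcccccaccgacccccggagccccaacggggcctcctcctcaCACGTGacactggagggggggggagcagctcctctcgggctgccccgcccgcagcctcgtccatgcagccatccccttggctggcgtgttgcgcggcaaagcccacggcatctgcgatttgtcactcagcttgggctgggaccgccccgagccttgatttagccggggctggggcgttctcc
Mest: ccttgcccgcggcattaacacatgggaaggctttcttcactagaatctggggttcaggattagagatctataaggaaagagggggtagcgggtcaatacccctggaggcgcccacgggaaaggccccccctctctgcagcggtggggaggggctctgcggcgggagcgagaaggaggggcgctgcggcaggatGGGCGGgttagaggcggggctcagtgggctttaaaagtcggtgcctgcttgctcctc
CACGTG, an E-box that reads the same on both strands, began 48 and 7 bases before the Igf2r start and 182 bases before the Plagl1 start, and 6.02% of 32851 promoters of the same length held it. GGGCGG, a GC box searched on both strands, began 57 bases before this Mest start, and 32.7% of promoters held it. GGGCGG was also found at 3 places in the Igf2r window and at 2 in that of Plagl1. The Igf2r window held 27 CG dinucleotides, that of Plagl1 19 and that of Mest 14, against a median of 6 over all promoters. The table held 3 entries for Mest: another starts 3 bases further on, also with 14 CG, and the one at chr6:30733256-30733505 held 7 CG, with GGGCGG 13 bases before its start. These matches are descriptions of the letters, and no binding was measured.

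Read totals were 9875390 to 15826711 counts per library. Levels are given as CPM, read counts put on 1 scale across libraries, with library sizes corrected by the trimmed mean of M values (TMM), and levels of different genes are compared only as CPM per kilobase of annotated exon. Of 25 stromal markers tested, 24 were higher in mesenchymal than in hematopoietic libraries of knock-in mice and 25 in those of wild type mice, and all 15 leukocyte markers tested were lower in both genotypes. Itgam was at 0 in every library, and 68.7% of its exon bases are shared with another annotated gene on the same strand. Sh3bp2 had medians of 7.65 CPM in knock-in and 7.48 CPM in wild type mesenchymal libraries, and 224 CPM in knock-in and 218 CPM in wild type hematopoietic libraries. The gene counts do not show the change in its sequence, so they do not check the genotype labels. The names of the deposited files carry 1 of 2 prefixes, each on 3 libraries of every group. These were read as 2 runs, and each fit held a term for them.

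In mesenchymal cells, H19 had 9.73, 34.9 and 44.4 CPM in knock-in libraries (lowest, median and highest), against 44.6, 82.1 and 181 CPM in wild type libraries. The genotypes did not overlap, although the highest knock-in and the lowest wild type library were close. The means were 31.1 ± 13.3 CPM in knock-in and 93.7 ± 54.9 CPM in wild type libraries (SD, n = 6 each), and the fitted log2 fold change was -1.55 with a standard error of 0.44. It was -1.91 in run 1 and -1.21 in run 2. In hematopoietic cells, H19 had 0.437, 1.62 and 4.29 CPM in knock-in libraries, against 1.33, 4.84 and 13.5 CPM in wild type libraries. These ranges overlapped: 2 knock-in libraries lay below all wild type libraries, and 3 wild type libraries lay above all knock-in libraries. The counts behind them were low, 6 to 58 reads in knock-in and 19 to 143 reads in wild type libraries. The fitted log2 fold change was -1.56 with a standard error of 0.60, and it was -2.46 in run 1 and -0.72 in run 2. The order of the 4 groups was thus wild type mesenchymal, knock-in mesenchymal, wild type hematopoietic and knock-in hematopoietic cells. The lowest knock-in mesenchymal library lay below the highest wild type hematopoietic library, so of the neighbours in this order the first pair alone did not overlap. The difference between the genotype effects of the 2 populations was -0.03 on the log2 scale, again with no test.

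**Figure D1:**
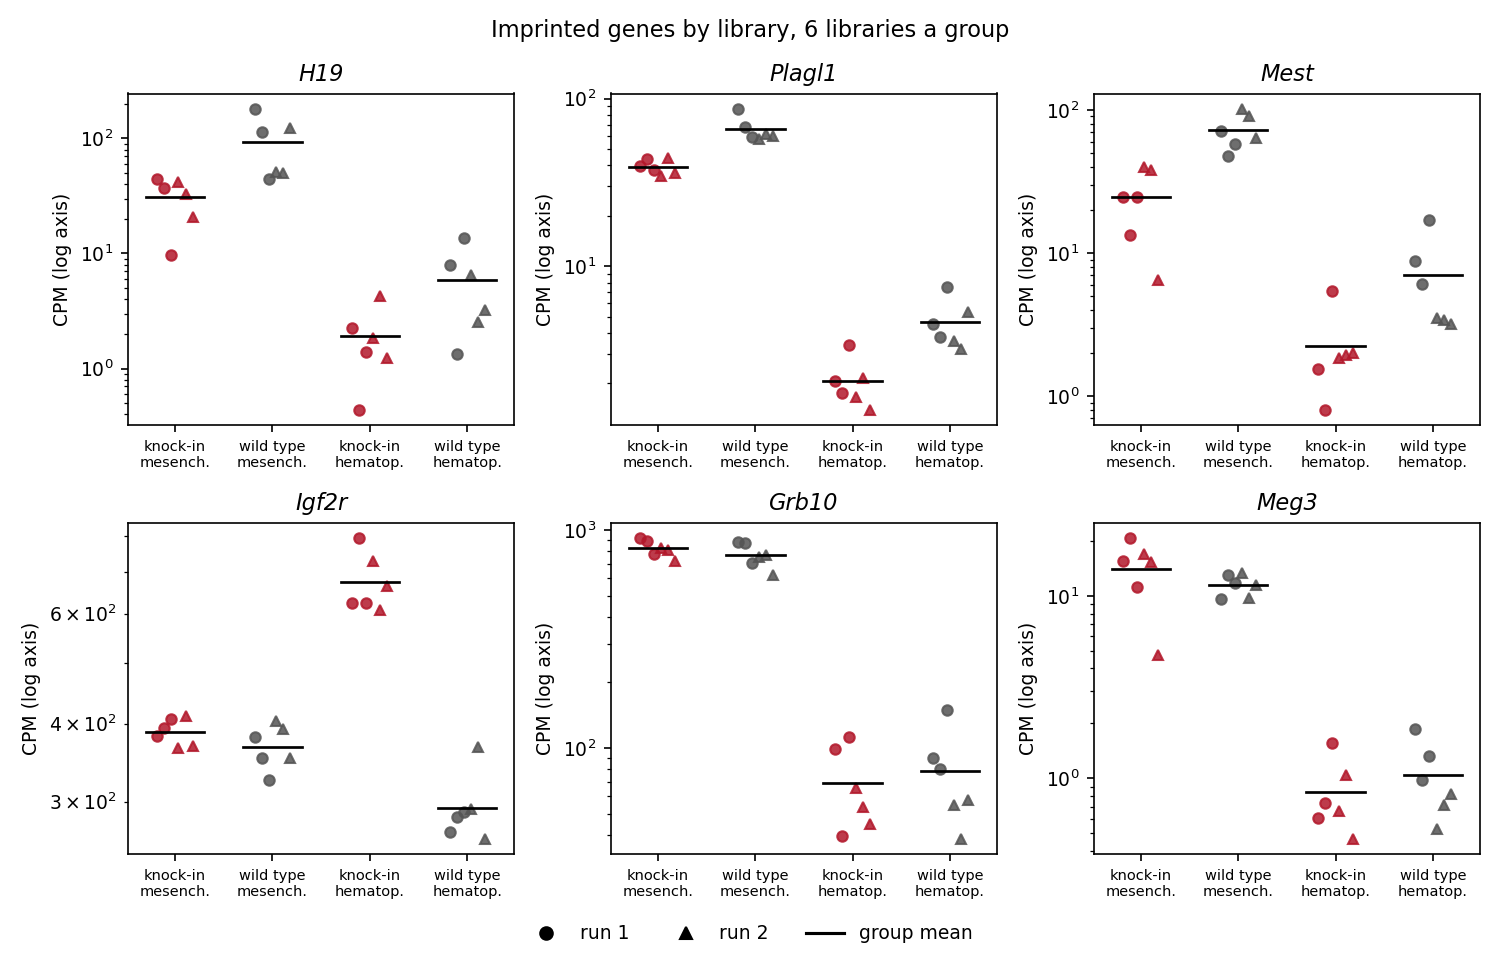
CPM (log axis) of 6 of the genes in each library, with knock-in left of wild type within each population. Circles are run 1, triangles are run 2 and the line is the mean of 6 libraries. H19, Plagl1 and Mest lay lower in all knock-in than in all wild type mesenchymal libraries, and Igf2r lay higher in all knock-in than in all wild type hematopoietic libraries.

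Igf2, the growth factor gene beside H19, had 0 counts in all 24 libraries of both genotypes. A count of 0 allows up to 3 counts in a library of this depth, and 62.8% of the Igf2 exon bases are shared with Gm49394, a gene annotated on the same strand that had 1 count in all. No level of Igf2 could therefore be set beside that of H19. The list of 10 other genes around H19 and Igf2 gave 4 tested genes in mesenchymal cells, of which Lsp1, a cytoskeletal protein of leukocytes, rose. Lsp1 had a median of 59.7 CPM in knock-in libraries and 38.2 CPM in wild type libraries, with a log2 fold change of 0.65 ± 0.11 (SE, edgeR adjusted p = 0.00419). Its medians in hematopoietic libraries were 24.5 CPM in knock-in and 38.5 CPM in wild type mice. In hematopoietic cells 0 of 5 tested neighbours passed the test with edgeR, 0 with DESeq2 and 0 at an unadjusted p under 0.05, and Lsp1 had a log2 fold change of -0.60 ± 0.32 (SE, edgeR adjusted p = 0.247). Those were edgeR quasi-likelihood tests with Benjamini-Hochberg adjustment over all tested genes, as are the adjusted p-values that follow, with a threshold of 0.05.

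Apart from H19, 6 of the genes had enough reads to be tested between genotypes in mesenchymal cells, and 2 fell, Plagl1 and Mest, while 0 rose with edgeR, with DESeq2 or at an unadjusted p under 0.05. Over all 13867 genes tested there, 7.27% passed the test, 3.83% lower and 3.44% higher in knock-in cells. The median log2 fold change of the 6, without H19, was -0.14, beside 0.00 over all genes tested. The 6 libraries of each genotype did not overlap for 4.13% of these genes, 2.06% higher and 2.08% lower in knock-in cells. Igf2, Dlk1 and Cdkn1c had too few reads for the test. Whether a lower level comes from fewer cells of a type or from less RNA per cell cannot be told apart in libraries of pooled cells.

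Plagl1 encodes a zinc finger transcription factor that regulates other imprinted genes in mouse, H19 and Igf2 among them. It had 34.4, 38.7 and 44.1 CPM in knock-in mesenchymal libraries, against 57.8, 60.9 and 87.4 CPM in wild type mesenchymal libraries. All 6 knock-in libraries lay below all 6 wild type libraries. The log2 fold change was -0.73 ± 0.10 (SE, edgeR adjusted p = 0.000812). Within the runs it was -0.83 in run 1 and -0.64 in run 2, with adjusted p-values of 0.0313 and 0.0652 in the edgeR fits of each run alone.

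Mest encodes a protein of the alpha/beta hydrolase fold that is expressed from the paternal copy and linked to growth and fat storage. Its level was 6.49, 24.8 and 39.8 CPM in knock-in mesenchymal libraries, against 47.9, 67.1 and 102.0 CPM in wild type mesenchymal libraries. The genotypes did not overlap, and the knock-in libraries spread widely among themselves. The log2 fold change was -1.54 ± 0.35 (SE, edgeR adjusted p = 0.0219), and the adjusted p was 0.0767 when genes of low count were not removed before the test. Each run gave a like value, -1.50 in run 1 and -1.59 in run 2, with edgeR adjusted p-values of 0.0255 and 0.357 for the runs alone. Copg2 on the opposite strand shares 912 exon bases with Mest, 23.1% of the Mest exons, and how the counting treated strand is not given in the sources used here.

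Markers of differentiated stromal cells were also lower in the knock-in mesenchymal libraries. Of 6 adipocyte markers tested, 5 fell, with log2 fold changes of -5.69 for the hormone gene Adipoq and -2.62 for the lipase gene Lpl, and 0 rose by edgeR, by DESeq2 or at an unadjusted p under 0.05. Adipoq had 0 to 4 reads in knock-in and 28 to 151 reads in wild type mesenchymal libraries, so the size of its fold change rests on few reads. The sum of the 8 listed adipocyte markers was 104 to 217 CPM in knock-in libraries, against 311 to 616 CPM in wild type libraries. Cidec, which had too few reads for the test, was at 0 in all knock-in mesenchymal and in all wild type hematopoietic libraries. In wild type mice the median of this sum was 476 CPM in mesenchymal and 633 CPM in hematopoietic libraries. Of 6 osteoblast markers tested, 5 fell, among them Ibsp, a bone matrix protein, with a log2 fold change of -3.96, and Runx2, the osteoblast transcription factor, with -0.59. With 1 library left out, the call was lost for 10 of the 12 libraries for Sp7, for 8 for Alpl and for 1 for Runx2 (wild type replicate 1, edgeR adjusted p = 0.0542). Their 8 listed markers summed to 677 to 1352 CPM in knock-in libraries, against 1502 to 3383 CPM in wild type libraries. Of 25 general stromal markers 2 rose, Serpinf1 and Col5a2, and 0 fell by edgeR, whereas 4 rose and 2 fell by DESeq2, and 5 rose and 2 fell at an unadjusted p under 0.05. The Col5a2 call was lost when any of 8 libraries was left out. Of 8 cell cycle markers 0 changed in mesenchymal cells by edgeR, by DESeq2 or at an unadjusted p under 0.05. What part these marker levels have in the lower H19, Plagl1 and Mest was not tested.

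The other members tested in mesenchymal cells did not pass the test. Peg3, a paternally expressed zinc finger gene, had means of 9.98 ± 2.63 CPM in knock-in and 12.7 ± 1.82 CPM in wild type libraries (SD, n = 6 each), with a log2 fold change of -0.36 ± 0.17 (SE, edgeR adjusted p = 0.233). Meg3, a maternally expressed non-coding RNA, had medians of 15.4 CPM in knock-in and 11.6 CPM in wild type libraries, with 0.29 ± 0.26 (SE, edgeR adjusted p = 0.560). The Meg3 level in 4 knock-in libraries lay above all wild type libraries, and that in 1 knock-in library lay below them. Grb10, an adaptor that restrains insulin and IGF receptor signalling, had medians of 815 CPM in knock-in and 758 CPM in wild type libraries, with 0.11 ± 0.09 (SE, edgeR adjusted p = 0.499). Igf2r had medians of 388 CPM in knock-in and 367 CPM in wild type libraries, with 0.09 ± 0.07 (SE, edgeR adjusted p = 0.529).

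Cdkn1c, which encodes the cell cycle inhibitor p57, had 27 reads in the 6 knock-in mesenchymal libraries and 78 in the 6 wild type mesenchymal libraries. Its median was 0.341 CPM in knock-in and 0.662 CPM in wild type libraries, and the ranges overlapped. Dlk1, a membrane protein that restrains fat cell formation, had 7 reads in knock-in and 12 in wild type mesenchymal libraries, and 0 in knock-in and 3 in wild type hematopoietic libraries. Cdkn1c in 4 knock-in mesenchymal libraries lay below all wild type ones, and in 3 wild type libraries above all knock-in ones. The ratio of its means was 0.381. The wild type libraries held 5 to 28 Cdkn1c reads, and their mean of 0.896 CPM lay above their median. Both genes fell under the count filter of the fit on mesenchymal libraries. In the fit of all 24 libraries Cdkn1c passed the filter and had a log2 fold change between genotypes of -1.39 ± 0.52 in mesenchymal cells, which did not pass the test (SE, edgeR adjusted p = 0.117). With no filter it was -1.33 ± 0.53 (SE, edgeR adjusted p = 0.197).

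In hematopoietic cells 7 members other than H19 were tested between genotypes: Igf2r rose, Plagl1 and Mest fell, and Meg3, Peg3, Cdkn1c and Grb10 did not pass the test. Over all 14030 genes tested there, 15.9% passed, 9.01% higher and 6.89% lower in knock-in cells. The median log2 fold change of the 7 members, without H19, was -0.22, beside -0.00 over all genes tested. The genotypes did not overlap for 7.83% of the genes, 4.62% higher and 3.21% lower in knock-in cells.

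The Igf2r level was 608, 645 and 793 CPM in knock-in hematopoietic libraries, against 261, 286 and 367 CPM in wild type hematopoietic libraries. All 6 knock-in libraries lay above all 6 wild type libraries. The log2 fold change was 1.21 ± 0.11, a fold of 2.32 (SE, edgeR adjusted p = 2.58e-05). It was 1.32 in run 1 and 1.13 in run 2, with adjusted p-values of 0.00422 and 0.0314 in the edgeR fits of each run alone. The genotype difference of Igf2r was smaller in mesenchymal than in hematopoietic cells by 1.12 on the log2 scale (interaction -1.12 ± 0.12 SE, edgeR adjusted p = 5.65e-06). Igf2r was the 1 member of 7 tested, H19 left out, whose interaction passed, where 7.28% of 15389 genes passed, 2.92% higher and 4.36% lower. The difference changed the order of the populations: in knock-in mice Igf2r was lower in mesenchymal than in hematopoietic cells, with a log2 fold change of -0.80 ± 0.08 (SE, edgeR adjusted p = 1.16e-08). In wild type mice it was higher in mesenchymal than in hematopoietic cells, with 0.32 ± 0.08 (SE, edgeR adjusted p = 0.00146).

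Airn, the paternally expressed non-coding RNA that crosses the Igf2r gene on the opposite strand and silences the paternal Igf2r copy in mouse, was higher in the same libraries. It was not a member and was read from the list of 53 other imprinted genes. Airn had 199, 290 and 506 CPM in knock-in hematopoietic libraries, against 97.2, 132 and 199 CPM in wild type hematopoietic libraries. The genotypes did not overlap, with the lowest knock-in and the highest wild type library side by side. The log2 fold change was 1.20 ± 0.28 (SE, edgeR adjusted p = 0.0123). In mesenchymal libraries Airn averaged 194 CPM in knock-in and 198 CPM in wild type cells, with -0.02 ± 0.16 (SE, edgeR adjusted p = 0.952). Neither run alone passed the edgeR test for Airn in hematopoietic cells, with 1.23 in run 1 and 1.19 in run 2 (edgeR adjusted p = 0.0621 and 0.244). The interaction was -1.22 ± 0.33 (SE, edgeR adjusted p = 0.0251), and its adjusted p was 0.0774 when genes of low count were not removed. The annotated exons of Airn and Igf2r share 0 bases, but unspliced RNA of either gene crosses the other, and without the strand setting such reads cannot be told apart.

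Plagl1 had 1.39, 1.91 and 3.40 CPM in knock-in hematopoietic libraries, against 3.20, 4.16 and 7.57 CPM in wild type hematopoietic libraries. In 5 knock-in libraries it lay below all wild type libraries. Its log2 fold change was -1.17 ± 0.25 (SE, edgeR adjusted p = 0.0061), from 18 to 39 reads in knock-in and 44 to 80 reads in wild type libraries. The level of Mest was 0.802, 1.89 and 5.41 CPM in knock-in hematopoietic libraries, against 3.21, 4.80 and 16.9 CPM in wild type hematopoietic libraries. Again 5 knock-in libraries lay below all wild type libraries. Mest had a log2 fold change of -1.44 ± 0.42 (SE, edgeR adjusted p = 0.0364). The Mest call was lost when any of 5 libraries was left out: replicates 1, 3 and 4 of wild type and replicates 1 and 4 of knock-in cells, with adjusted p-values of up to 0.0779. In the single runs Plagl1 had -1.10 and -1.21 and Mest had -2.02 and -0.80, run 1 before run 2, with no call in either run. The interactions were 0.44 on the log2 scale for Plagl1 (edgeR adjusted p = 0.340), and none of the members other than Igf2r passed.

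**Figure D2:**
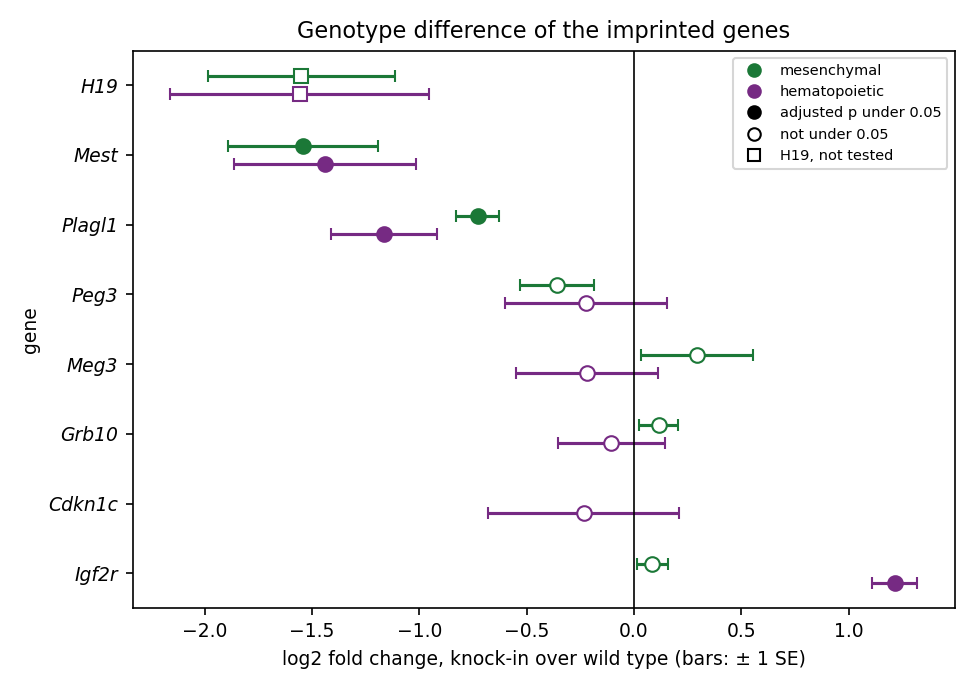
Log2 fold change of each gene, knock-in over wild type, in mesenchymal (green) and hematopoietic (purple) cells, with bars of 1 standard error on each side. Filled points passed an adjusted p of 0.05 and the squares of H19 were not tested. Mest and Plagl1 lay below 0 in both populations, and Igf2r lay at 1.21 in hematopoietic cells and at 0.09 in mesenchymal cells.

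The hematopoietic libraries held RNA of stromal genes, and in most of them H19, Plagl1 and Mest, each as a percentage of its mesenchymal level, lay below the share estimated from stromal markers. The stromal share of a library was taken as the median over stromal markers of its CPM over the mean mesenchymal CPM of the same genotype. It was 10.6% ± 5.56 in knock-in and 9.96% ± 4.89 in wild type hematopoietic libraries (SD, n = 6 each), from 5.01% to 21.1% in knock-in and from 6.25% to 19.4% in wild type libraries. The difference of 0.595 percentage points lay within the spread between libraries (p = 0.779, exact permutation test, two-sided). Mean H19 in hematopoietic cells was 6.15% of its mesenchymal level in knock-in and 6.23% in wild type mice, and 5 of 6 knock-in and 6 of 6 wild type libraries lay below their own stromal share. Plagl1 stood at 5.26% of its mesenchymal level in knock-in and 7.11% in wild type mice, below the stromal share in 6 of 6 knock-in and 5 of 6 wild type libraries. Mest stood at 9.22% in knock-in and 9.70% in wild type mice, below that share in 4 of 6 libraries of each genotype. The means of 3 other members were Meg3 at 5.99% and 9.03%, Grb10 at 8.37% and 10.2%, and Peg3 at 14.1% and 12.9%, in the same order. Of 6 knock-in and 6 wild type libraries, 6 and 4 lay below their share for Meg3, 4 and 2 for Grb10, and 2 and 2 for Peg3. Igf2r stood apart, at 174% in knock-in and 79.9% in wild type mice.

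The stromal share of the mean mesenchymal counts of each genotype was then subtracted from the hematopoietic counts. H19 was left with 0 reads in 11 of 12 libraries and Plagl1 also in 11 of 12. Mest kept 18 and 31 reads in wild type replicates 1 and 3, and 3 and 10 reads in knock-in replicates 3 and 6. It had 0 reads in the other libraries, and too few in all for the test. Igf2r, Grb10 and Cdkn1c then had enough reads for the test, and 1 of them was called, Igf2r, with a log2 fold change of 1.32 ± 0.11 (SE, edgeR adjusted p = 2.82e-05). Airn remained called, with 1.31 ± 0.30 (SE, edgeR adjusted p = 0.0138). The wild type hematopoietic library with the highest stromal share also had the highest H19, Plagl1 and Mest levels of its group, and without it the log2 fold change was -1.15 for H19, -1.01 for Plagl1 and -1.13 for Mest (edgeR adjusted p = 0.0169 for Plagl1 and 0.0703 for Mest). The lower hematopoietic levels of these 3 genes and the lower levels in knock-in mesenchymal cells cannot be told apart in these libraries. Leukocyte RNA in mesenchymal libraries was scarce, at 0.502% ± 0.301 of the hematopoietic level in knock-in and 0.408% ± 0.128 in wild type libraries (SD, n = 6 each, p = 0.494 by the same exact permutation test).

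**Figure D3:**
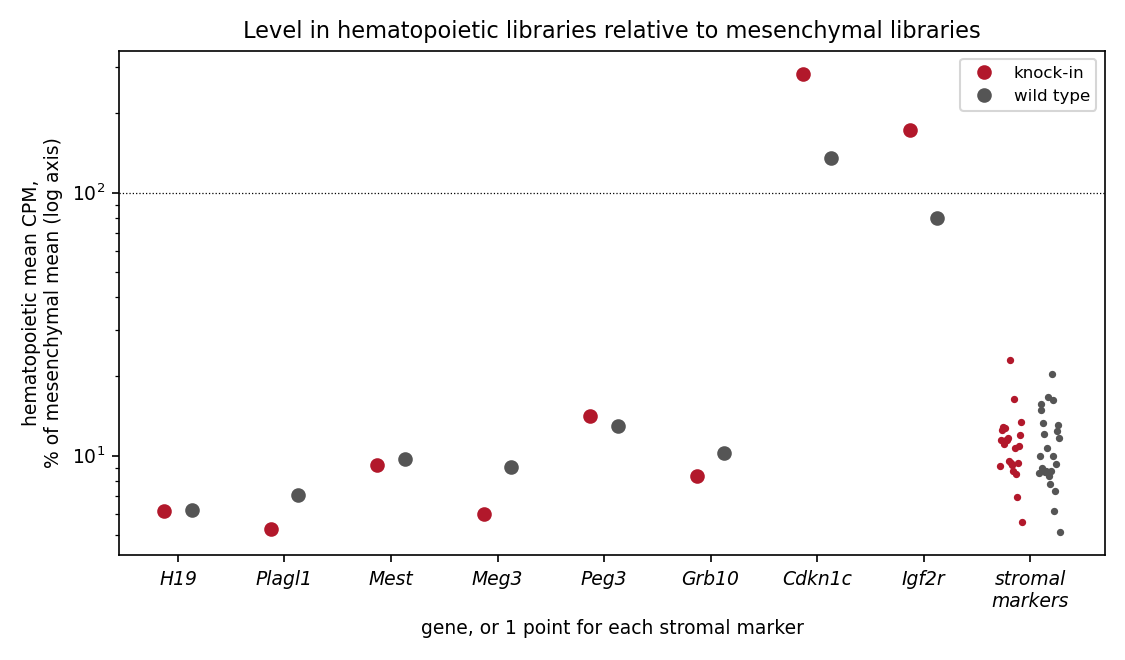
Mean hematopoietic level of each gene as a percentage of its mean mesenchymal level (log axis), knock-in left of wild type, with the stromal markers as small points at the right. Markers had medians of 11.1% in knock-in and 9.95% in wild type mice. H19, Plagl1, Mest, Meg3, Peg3 and Grb10 lay between 5.26% and 14.1%, and Cdkn1c and Igf2r lay far higher.

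Cdkn1c was the 1 tested member other than Igf2r that was lower in mesenchymal than in hematopoietic cells of knock-in mice. Its medians were 0.341 CPM in knock-in mesenchymal and 0.874 CPM in knock-in hematopoietic libraries, with a log2 fold change of -1.49 ± 0.52 (SE, edgeR adjusted p = 0.0129). In wild type mice the medians were 0.662 CPM in mesenchymal and 0.892 CPM in hematopoietic libraries, with -0.43 (edgeR adjusted p = 0.409). The interaction of Cdkn1c was -1.06 ± 0.70 (SE, edgeR adjusted p = 0.453). Between genotypes in hematopoietic cells it had -0.23 ± 0.44 (SE, edgeR adjusted p = 0.782).

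The other 6 tested members were called higher in mesenchymal than in hematopoietic cells in both genotypes, where 73% of genes changed in knock-in mice (33.9% higher and 39.1% lower) and 73.5% in wild type mice (35.4% higher and 38% lower). The ratio of mean H19 levels was 16.3 in knock-in mice (edgeR adjusted p = 9.41e-07) and 16.1 in wild type mice (edgeR adjusted p = 2.56e-07). Plagl1 had log2 fold changes of 4.26 in knock-in and 3.83 in wild type mice, Meg3 4.06 and 3.54, Grb10 3.62 and 3.37, Mest 3.48 and 3.44, and Peg3 2.83 and 2.95, in the same order. The mesenchymal and hematopoietic libraries of these 6 genes did not overlap in either genotype, which was so for 51.3% of all tested genes in knock-in and 51.7% in wild type mice (23.8% and 23.9% higher and 27.5% and 27.9% lower in mesenchymal cells, in the same order).

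Per kilobase of exon, Grb10 was the most abundant member in mesenchymal cells, at 90.7 CPM per kb in knock-in and 84.3 CPM per kb in wild type libraries. Igf2r followed with 41.7 and 39.5 CPM per kb, and H19 with 12.6 CPM per kb in knock-in and 38.1 CPM per kb in wild type libraries. Mest had 6.21 and 18.3 CPM per kb and Plagl1 had 5.02 and 8.40 CPM per kb, knock-in before wild type. Peg3, Meg3 and Cdkn1c lay below 1 CPM per kb. In hematopoietic cells Igf2r led, at 72.4 CPM per kb in knock-in and 31.5 CPM per kb in wild type libraries.

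Other imprinted genes were read to see whether the members moved with a wider group. Of 31 tested in mesenchymal cells, 2 rose, Dio3 and Htr2a, and 0 fell by edgeR, whereas 1 fell by DESeq2 and 3 had a lower level at an unadjusted p under 0.05. Of 29 tested in hematopoietic cells, 3 rose, Dio3, Airn and Blcap, and 1 fell, Ube3a. Over all genes tested, 7.27% passed in mesenchymal and 15.9% in hematopoietic cells, so these counts do not set the list apart from other genes. The medians of their log2 fold changes were 0.03 in mesenchymal and 0.05 in hematopoietic cells. Dio3, the enzyme that inactivates thyroid hormone, lies with Dlk1 and Meg3 in an imprinted cluster on chromosome 12. It had 11.1, 21.3 and 39.1 CPM in knock-in mesenchymal libraries, against 1.66, 3.98 and 5.44 CPM in wild type mesenchymal libraries, with no overlap. The log2 fold change was 2.51 ± 0.33 (SE, edgeR adjusted p = 0.000898) in mesenchymal cells and 2.32 ± 0.46 (SE, edgeR adjusted p = 0.00452) in hematopoietic cells. The runs alone gave 2.27 and 2.76 in mesenchymal and 2.13 and 2.60 in hematopoietic cells, and the last of these did not pass the edgeR test (edgeR adjusted p = 0.180). The Htr2a and Ube3a calls were each lost when any of 7 libraries was left out. Mean Dio3 levels in hematopoietic libraries were 4.04 CPM in knock-in and 0.862 CPM in wild type cells, 18.1% and 21.6% of the mesenchymal levels, and with the stromal share subtracted Dio3 had too few reads for the test.

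Of 14 genes that keep or read imprints, 13 were tested in each population. In mesenchymal cells 0 of them changed by edgeR and 0 by DESeq2, with 4 at an unadjusted p under 0.05 (1 higher and 3 lower). In hematopoietic cells 1 rose and 1 fell, where 15.9% of all genes tested passed. Zfp57, a zinc finger protein that protects imprints, rose there by 1.18 ± 0.36 on the log2 scale (SE, edgeR adjusted p = 0.0407), from 14 to 37 reads in knock-in and 4 to 15 reads in wild type libraries. Smchd1, a chromatin protein that acts at some imprinted clusters, fell by 0.23 there (edgeR adjusted p = 0.0393). With 1 library left out, the Zfp57 call was lost for 8 of the 12 libraries and the Smchd1 call for 9. Mean Zfp57 in hematopoietic cells was 14.9% of its mesenchymal level in knock-in and 6.65% in wild type mice, and with the stromal share subtracted it had too few reads for the test.

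The IGF pathway held the receptors, binding proteins and adaptors that the members act on. In mesenchymal cells 13 of the 14 listed genes were tested, 1 rose and 2 fell, where 7.27% of all genes tested passed. Irs1, an adaptor of the insulin and IGF1 receptors, had 262, 302 and 376 CPM in knock-in mesenchymal libraries, against 489, 581 and 739 CPM in wild type mesenchymal libraries. The genotypes did not overlap, and the log2 fold change was -0.94 ± 0.12 (SE, edgeR adjusted p = 0.000408). Igfbp4, a secreted protein that binds IGFs, had medians of 168 CPM in knock-in and 745 CPM in wild type libraries and a ratio of means of 0.249 (edgeR adjusted p = 0.00228). Igf1r, the receptor for IGF1, had medians of 535 CPM in knock-in and 427 CPM in wild type libraries, with 0.40 ± 0.11 (SE, edgeR adjusted p = 0.0463), a call that was lost when any of 10 libraries was left out. In hematopoietic cells 11 were tested, 3 fell and 0 rose by edgeR, 4 fell and 0 rose by DESeq2, and 0 rose at an unadjusted p under 0.05. Over all genes tested there, 15.9% passed by edgeR. Igf1, the growth factor, had medians of 585 CPM in knock-in and 961 CPM in wild type hematopoietic libraries, with -0.73 ± 0.17 (SE, edgeR adjusted p = 0.00973). Irs1 had -1.27 ± 0.28 (SE, edgeR adjusted p = 0.0095) and Igfbp4 had -0.82 ± 0.14 (SE, edgeR adjusted p = 0.002). Mean Irs1 in hematopoietic cells was 8.83% of its mesenchymal level in knock-in and 11.4% in wild type mice, close to the mean stromal shares of 10.6% and 9.96%, and with that share subtracted Irs1 had too few reads for the test. The lower hematopoietic Irs1 and its lower level in knock-in mesenchymal cells cannot be told apart. Igfbp4 stood at 135% in knock-in and 59.6% in wild type mice and was still called with the share subtracted, with -0.65 (edgeR adjusted p = 0.0264). The fall of Igfbp4 was larger in mesenchymal cells, with an interaction of -1.18 ± 0.32 (SE, edgeR adjusted p = 0.025). That call was lost without replicate 6 of either genotype's mesenchymal libraries, with adjusted p-values of up to 0.0599.

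**Figure D4:**
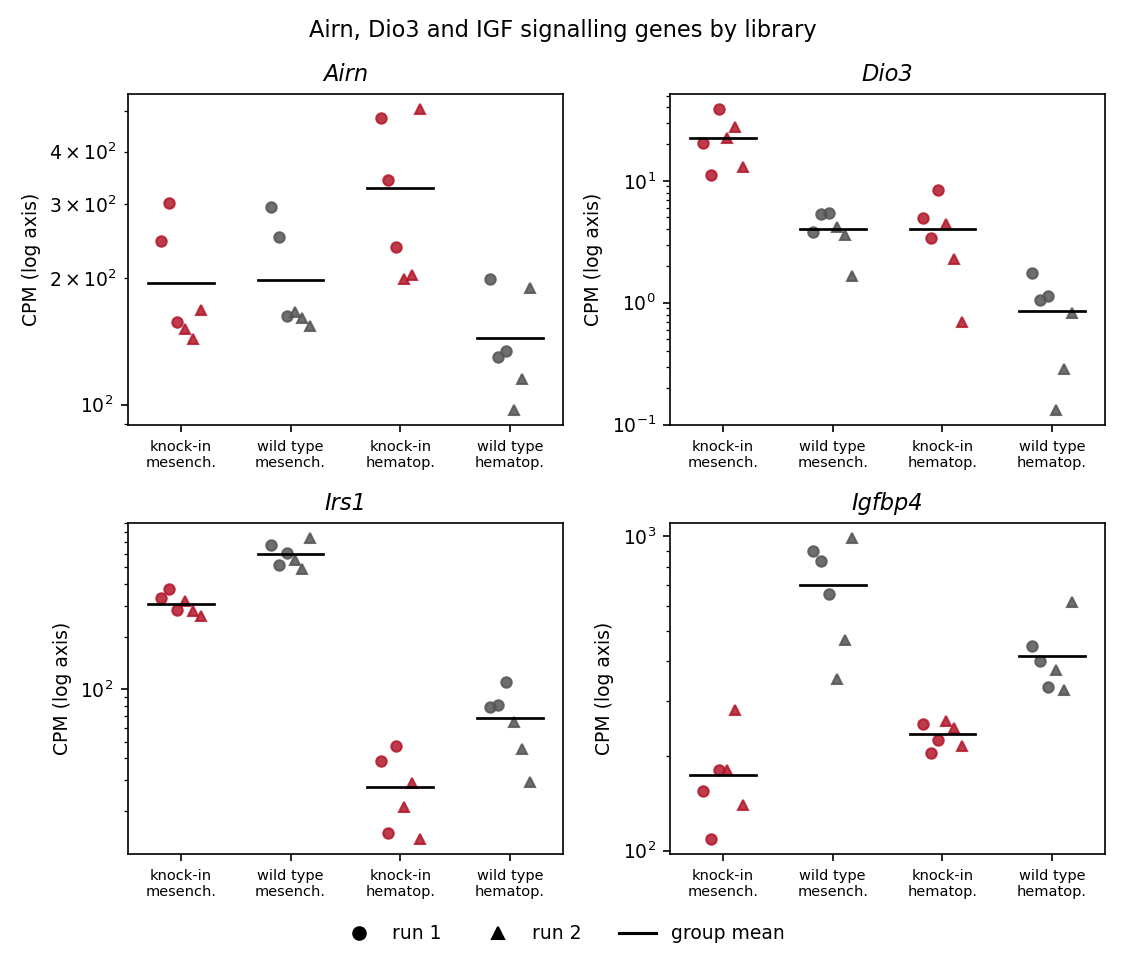
CPM (log axis) of Airn, Dio3, Irs1 and Igfbp4 in each library, with knock-in left of wild type within each population, circles for run 1, triangles for run 2 and a line for the mean of 6 libraries. Airn lay higher in all knock-in than in all wild type hematopoietic libraries. Irs1 and Igfbp4 lay lower in all knock-in than in all wild type mesenchymal libraries, and Dio3 lay higher.

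The genes whose levels moved most like H19 were found from log2 CPM over the 24 libraries after the mean of each population and run was removed, among 15388 genes. Gulp1, an adaptor for the uptake of dying cells, had a Pearson r of 0.864, and Bicc1, an RNA-binding protein, had 0.863. Pfdn5, a prefoldin subunit, had 0.846, Selenop, a selenium carrier, had 0.843, and the predicted gene Gm36283 had 0.837. Among the members, Plagl1 had 0.752, Mest 0.676, Peg3 0.527, Grb10 0.483, Cdkn1c 0.393 and Meg3 0.290, and Igf2r had -0.527. From the highest r down, Plagl1 ranked 67, Mest 238, Peg3 1138, Grb10 1557, Cdkn1c 2552, Meg3 3932 and Igf2r 14368 among the 15388 genes. The points share library, depth and genotype, since the genotype means were not removed, so these values are a description. The stromal share of the hematopoietic libraries, 5.01% to 21.1% in knock-in and 6.25% to 19.4% in wild type, was not removed either.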

How the data were processed

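Per the labels' protocols, RNA was depleted of ribosomal RNA, made into stranded libraries with a SMARTer kit and read as paired ends on a NextSeq instrument. Each deposited file holds the raw counts of 1 library per Ensembl gene. The submitters' processing notes name GRCm38 (mm10), HTSeq 0.9.1, DESeq2 1.20.0, FastQC 0.11.7 and MultiQC. Which aligner was used, and how counting treated strand, is not given in the sources used here. Of 54232 identifiers, 54165 matched GENCODE's GRCm38 annotation, which gave symbols, positions and exon lengths.

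In R 4.3.3, the quasi-likelihood test of edgeR 4.0.16 (robust fit, TMM factors) was run on genes that passed filterByExpr at a minimum count of 10 and a minimum total of 15, with the run as a term and Benjamini-Hochberg adjustment over all tested genes at 0.05. Genotype comparisons used the 12 libraries of a population, and population and interaction tests used all 24. Fold changes have knock-in or mesenchymal cells on top. No label states the runs, so values by run rest on the file names. Replicates of a group differed by a chi-square of 6.73 to 58.8 per degree of freedom, so none were merged. Stromal shares used markers of 10 CPM or more in mesenchymal libraries. Alternatives were DESeq2 1.42.0, its size factors, no filter, no run term, a replicate block, each run alone, each library left out, 1 fit of all 24 libraries, and, for the hematopoietic comparison, subtraction of the stromal share. The bound of 3 counts given for a count of 0 covers counting error only.

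The members, lists, tests and alternatives were chosen with earlier results of these data known. The named genes were the 10 members, Sh3bp2, the 5 genes most like H19, and, from each other list, up to 4 called genes by adjusted p in each genotype comparison. Igf2 had no reads, so no genes most like it were sought. Not every gene so named is printed, and Airn in mesenchymal cells, Lsp1 in hematopoietic cells and the genes at 0 were chosen after their values were seen.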

Additional observations from a re-analysis of the deposited data

Results flagged for a closer look

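Of 39 groups of 6 libraries checked, 7 held a library that stood apart from the other 5 by Dixon's criterion, which flags about 1 in 20 groups by chance. Among knock-in hematopoietic libraries, the highest Mest level was 5.41 CPM and the highest Peg3 level was 3.05 CPM, both in the library whose stromal share of 21.1% was itself the highest of its group. Among wild type hematopoietic libraries, the highest stromal share was 19.4%, the highest Igf2r level was 367 CPM, and the highest Dlk1 level was 0.224 CPM, from 3 reads in the 1 library of the group with any. The highest Plagl1 level among wild type mesenchymal libraries was 87.4 CPM. The Igf2r difference between genotypes also differed between the populations, by -1.12 on the log2 scale for mesenchymal minus hematopoietic cells (edgeR adjusted p = 5.65e-06), with all 6 knock-in libraries above all 6 wild type libraries in hematopoietic cells and overlapping ranges in mesenchymal cells.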

How the results depend on the processing

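Igf2r in hematopoietic cells and Plagl1 in both populations kept their calls with DESeq2 or its size factors, with no filter, with no run term, with 1 fit of all 24 libraries and with each library left out. Plagl1 was not called in run 2 alone in mesenchymal cells or in either run alone in hematopoietic cells. With the stromal share subtracted, Plagl1 had too few reads for the test in hematopoietic cells. Genes called in mesenchymal cells numbered 1008, against 1645 with DESeq2, 391 in run 1 alone, 76 in run 2 alone and 646 to 1036 with a library left out (646 without replicate 1 of the knock-in). In hematopoietic cells they numbered 2231, against 672 in run 1 alone, 218 in run 2 alone and 1745 to 2206 with a library left out. Members called in mesenchymal cells numbered 2, against 1 with no filter, 0 in run 2 alone and 2 with any library left out. In hematopoietic cells they numbered 3, against 1 in run 1 alone, 1 in run 2 alone, 1 with the stromal share subtracted and 2 to 3 with a library left out. A run alone has 3 libraries a group. Directions turned for genes that were not called: in hematopoietic cells Peg3 had 0.067 in run 1 alone, and Cdkn1c had 0.67 and Grb10 had 0.13 in run 2 alone, and for Cdkn1c between wild type populations run 2 alone gave 0.76. With a library left out, ranges crossed 0 for Cdkn1c (-0.55 to 0.080) and Grb10 (-0.19 to 0.072) in hematopoietic cells, for Airn (-0.13 to 0.075) and Sh3bp2 (-0.0066 to 0.083) in mesenchymal cells, and for the interactions of H19 (-0.45 to 0.44), Peg3 (-0.29 to 0.26) and Mest (-0.41 to 0.51). The cause was not tested. The labels do not say that same-numbered libraries are pairs, and they were not treated as such because the correlation of their deviations was not over 0.1 in every pair. It was 0.0285 to 0.304 in mesenchymal cells, over 0.1 in 4 of 6, and 0.0550 to 0.402 in hematopoietic cells, over 0.1 in 5 of 6. Of the 6 numbers, 2 and 4 correlated best with their own, a hint of pairing from the data and not from the design. Between same-numbered mesenchymal and hematopoietic libraries the correlation was -0.0918 to 0.256 in wild type and -0.0824 to 0.265 in knock-in mice. There 1 of 6 numbers in wild type and 2 of 6 in knock-in mice correlated best with their own. Whether the 2 populations came from shared cultures is not stated, and the main population and interaction fits held no term for it. With the replicate block 1258 genes were called in mesenchymal and 3315 in hematopoietic cells, no member's call changed, and the Mest interaction was -0.067. Levels under about 1 CPM, as of Cdkn1c, Meg3 and Dlk1 in hematopoietic cells, rest on few reads.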

Other observations

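Beside the edgeR counts of markers below, 15.9% of all genes tested passed between genotypes in hematopoietic and 7.27% in mesenchymal cells. Leukocyte markers moved both ways in hematopoietic cells of knock-in mice. Of 15 tested, 2 rose and 4 fell: Itgb2, an integrin chain, had a log2 fold change of 0.56 and Lyz2, lysozyme, had 0.66, while Cd53 had -0.32 and Fcer1g, an Fc receptor chain, had -0.65. In mesenchymal cells 0 of 11 changed by edgeR or DESeq2, with 2 higher at an unadjusted p under 0.05. Their 16 listed markers summed to 34.4 to 151 CPM in knock-in and 33.4 to 100 CPM in wild type mesenchymal libraries.

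Of 7 smooth muscle and pericyte markers tested in hematopoietic cells and 8 in mesenchymal cells, 1 fell in each, the kinase gene Mylk, with log2 fold changes of -0.92 and -0.56. In hematopoietic cells 3 of 6 osteoblast markers fell (Sp7, Runx2 and Alpl), and with 1 library left out the call was lost for 9 of the 12 libraries for Runx2 and for 10 for Alpl. As a percentage of the mesenchymal level, mean hematopoietic Mylk stood at 5.28% in knock-in and 6.92% in wild type mice, Alpl at 9.99% and 12.3%, Sp7 at 13.2% and 14.1% and Runx2 at 18.9% and 17.7%, in the same order, beside stromal shares of 10.6% and 9.96%. With that share subtracted, Sp7, Runx2 and Alpl were not called (edgeR adjusted p = 0.253, 0.643 and 0.232) and Mylk had too few reads for the test. The falls of these 4 genes in hematopoietic libraries and their lower levels in mesenchymal cells cannot be told apart. Of 8 cell cycle markers 1 fell, Pcna, with -0.45 in hematopoietic cells. There 0 of 5 adipocyte markers changed by edgeR or DESeq2, with 1 lower at an unadjusted p under 0.05, and 0 of 23 stromal markers changed by edgeR, by DESeq2 or at an unadjusted p under 0.05. By the same 3 counts, 0 of 7 endothelial markers tested in mesenchymal and 0 of 6 in hematopoietic cells changed. The 6 myoblast markers summed to at most 5.27 CPM in knock-in and 5.76 CPM in wild type mesenchymal libraries, with Myf5 at 0, and the 1 tested did not pass the edgeR or DESeq2 test, with 1 lower at an unadjusted p under 0.05.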
